A study of Homo sapiens with 2 samples.

Results

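The rows examined were the small nucleolar and small Cajal body RNA genes that reached a level of 5 FPKM in at least 1 of 2 HEK293 samples. They were chosen by name and by measured value: a row was taken when its symbol started with SNORD (box C/D RNAs), SNORA (box H/ACA RNAs) or SCARNA (small Cajal body RNAs) and its FPKM, the number of fragments scaled by gene length and by sequencing depth, was at least 5 in the WT sample, the PERK-KO sample or both. Of 428 rows with such names among 25277 rows in the tables, 181 met this limit, namely 106 SNORD, 68 SNORA and 7 SCARNA rows. They carried 180 distinct names, because SNORD62A was listed at 2 places. Of the others, 10 rows had a value above 0 but under 5 FPKM in both samples, and 237 rows were listed at 0 in both. Since both values of a row decided whether it was taken, the levels and ratios below are a description of these 2 samples, without a test.

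The samples were WT HEK293 cells and HEK293 cells in which EIF2AK3, the gene for the ER-resident kinase PERK, had been knocked out. HEK293 is an established human embryonic kidney cell line. Both cultures were at passage 15 to 20 and had spent 12 h in OXPHOS medium, in which galactose and pyruvate took the place of glucose. The knockout line was made with CRISPR/Cas9 and seeding of single cells, so that a property of the clone and an effect of the missing kinase cannot be told apart, and each genotype had 1 sample. The row of EIF2AK3 itself had 5.61 FPKM in WT and 3.89 FPKM in PERK-KO, a log2 ratio of -0.53. This difference of 1.44-fold lay within the limit of about 1.5-fold used below, although the confidence limits in the samples did not overlap. RNA with poly(A) tails was selected before library preparation.

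Box C/D RNAs guide the methylation of ribose in ribosomal and spliceosomal RNA, and box H/ACA RNAs guide the conversion of uridine to pseudouridine. Small Cajal body RNAs carry the same boxes and act on spliceosomal RNAs in Cajal bodies. In human cells most of them are cut out of the introns of host genes, many of which encode ribosomal proteins or other factors of translation, while others, such as GAS5 and the SNHG genes, are spliced RNAs without a known main protein product. The mature small RNAs are bound by their own core proteins, carry no poly(A) tail and are shorter than most fragments of an mRNA library. Whether the fragments described below came from mature small RNAs or from longer transcripts of their hosts was not tested.

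The sequences of the members on which the results turn are shown first, read 5′ to 3′ from the GRCh37 genome over the positions of the deposited rows. In the box C/D members, capitals mark the first TGATGA, a common form of box C, and the last CTGA, the letters of box D. SNORD36A (chr9:136217311-136217382, plus strand) had the lowest ratio among well covered members. SNORD96A (chr5:180668818-180668889, minus strand) had one of the highest ratios, SNORD22 (chr11:62620382-62620507, minus strand) was the best covered member in SNHG1, and SNORD80 (chr1:173833971-173834041, minus strand) was one of the 2 best covered members in GAS5. SNORD81 (chr1:173833313-173833355, minus strand) and SNORD49B (chr17:16342823-16342870, plus strand) were the shortest rows.
SNORD36A: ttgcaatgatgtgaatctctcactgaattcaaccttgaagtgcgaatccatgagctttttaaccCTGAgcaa
SNORD96A: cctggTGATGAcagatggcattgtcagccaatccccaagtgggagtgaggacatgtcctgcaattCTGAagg
SNORD22: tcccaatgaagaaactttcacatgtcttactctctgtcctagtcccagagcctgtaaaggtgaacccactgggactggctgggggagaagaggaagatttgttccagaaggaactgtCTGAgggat
SNORD80: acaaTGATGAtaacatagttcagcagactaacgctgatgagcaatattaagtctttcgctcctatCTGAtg
SNORD81: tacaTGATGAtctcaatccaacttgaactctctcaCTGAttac
SNORD49B: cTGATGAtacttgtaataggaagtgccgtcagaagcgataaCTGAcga
For SNORD22, SNORD80, SNORD81 and SNORD49B the strand is that of the host gene, since these rows had no entry of their own in the GENCODE annotation used.

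In the box H/ACA members, capitals mark the ACA triplet near the 3′ end. SNORA10 (chr16:2012335-2012467, minus strand) and SNORA64 (chr16:2012974-2013107, minus strand) lie in the same host gene, RPS2. SNORA70 (chrX:153628622-153628756, plus strand) lies in RPL10.
SNORA10: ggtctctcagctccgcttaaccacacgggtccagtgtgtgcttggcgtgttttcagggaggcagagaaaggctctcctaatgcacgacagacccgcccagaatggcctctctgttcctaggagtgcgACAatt
SNORA64: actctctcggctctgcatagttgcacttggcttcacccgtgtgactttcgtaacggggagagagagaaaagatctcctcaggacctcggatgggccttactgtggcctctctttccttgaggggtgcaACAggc
SNORA70: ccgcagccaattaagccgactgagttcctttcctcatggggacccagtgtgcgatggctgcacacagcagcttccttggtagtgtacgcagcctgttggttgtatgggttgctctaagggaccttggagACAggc

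The boxes were frequent across the members, and they lay on the strand used. TGATGA was found in 70 of 106 SNORD members (66.0%) and in none (0 of 106) when the reverse complement of the same windows was searched. CTGA was found in 104 of 106 SNORD members (98.1%) and in 26 of 106 reverse complements (24.5%). Of 67 SNORA members with an assigned strand, 51 (76.1%) had ACA exactly 3 bases before the end of the row, against 2 reverse complements (2.99%). The loose box H letters ANANNA were found in 65 of the 67 SNORA members (97.0%), but also in 61 of their reverse complements (91.0%).

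Rows that did not reach 5 FPKM had the same boxes. Of 144 such SNORD rows on the main chromosomes, 123 (85.4%) held TGATGA. Most of these rows were the repeated genes SNORD113 to SNORD116, of which the tables list 117 and of which 0 were members. Without them 29 of 40 SNORD rows (72.5%) held TGATGA. Of 38 SNORA rows under the limit, 30 (78.9%) had ACA 3 bases before their end. SNORD22 and SNORD36A show that a member need not hold the exact letters searched.

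The FPKM of these rows depended strongly on their length. Cufflinks divides by an effective length, the number of start positions that a fragment of typical length has within the gene, and a row much shorter than a fragment has almost none. For most members the deposited values were whole numbers of fragments times a value fixed by length and sample. A fragment length with mean 200 bases and SD 80 bases, cut at 34 bases, gave this value at 91 combinations of length and sample with a largest deviation of 0.000387%. The same fit gave 20222269 fragments as the total by which WT was scaled and 17712320 for PERK-KO. At 72 bases, the length of 8 members, the effective length was 0.643 bases, and 1 fragment was worth 76.9 FPKM in WT and 87.8 FPKM in PERK-KO. At 133 bases, the length of 12 members, 1 fragment was worth 7.16 FPKM in WT and 8.18 FPKM in PERK-KO. At 1000 bases it would be worth 0.0620 FPKM in WT.

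**Figure D1:**
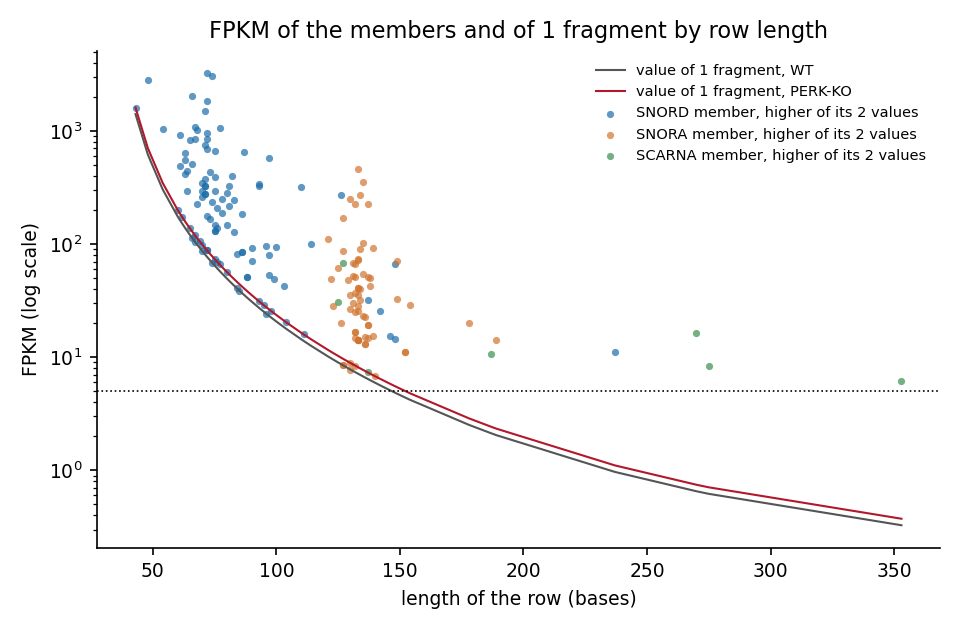
FPKM (log scale) against row length in bases. Lines show what 1 fragment is worth in WT and PERK-KO, points show the higher of each member's 2 values by class, and the dotted line marks 5 FPKM. A single fragment exceeded 5 FPKM in WT up to a length of 146 bases, and the highest FPKM values stood at lengths between 48 and 74 bases.

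The limit of 5 FPKM was therefore passed by a single fragment in rows of up to 146 bases in WT and up to 152 bases in PERK-KO. Of the 181 members, 167 were no longer than 146 bases. Members had a median of 2 fragments in WT and 2 in PERK-KO, and 89 of 181 had no more than 3 fragments in both samples. In 32 members neither sample had more than 1 fragment. At the other end, 32 members had at least 10 fragments in one or both samples, and these held 62.3% of the members' fragments in WT and 59.9% in PERK-KO. All members together had 902 fragments in WT and 912 in PERK-KO, which was 0.00446% and 0.00515% of the totals, although their FPKM made up 3.14% and 4.93% of the summed FPKM of the tables.

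**Figure D2:**
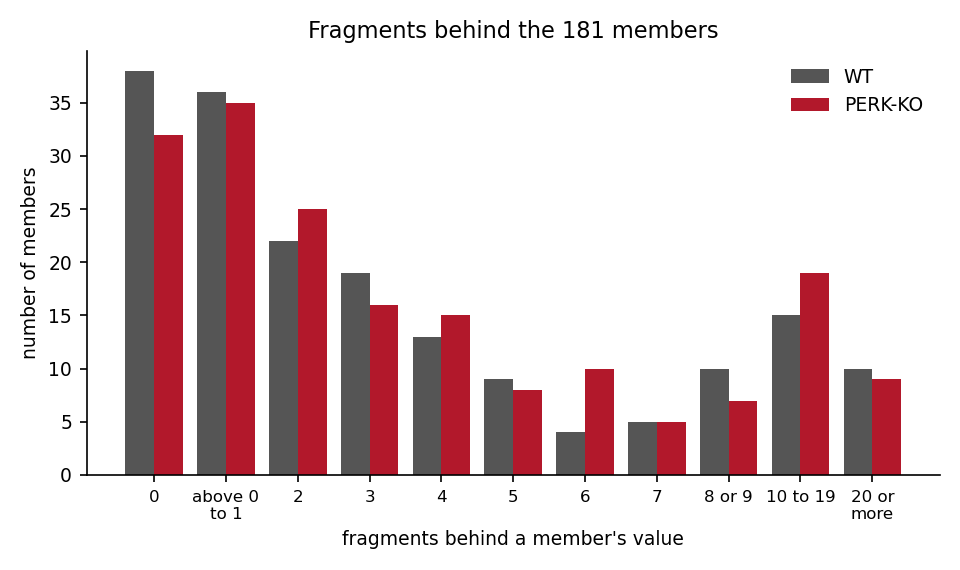
Number of members (of 181) by the number of fragments behind their value in WT and PERK-KO. Numbers that are not whole are rounded up, except that SNORA17 in PERK-KO, far under 1 fragment, stands at 0. In WT 38 members were at 0, and in both samples the bars fall from 1 fragment to 5.

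For 170 members the fragment numbers were whole in both samples, within 0.02 fragments, and for 11 they were not. SNORA59A and SNORA59B had 2.5 fragments each in WT and 0.5 each in PERK-KO, and their sequences were identical. The identical pair SNORD103A and SNORD103B had 1.5 fragments each in WT and 0 in PERK-KO, and both SNORD62A rows had 0.5 in WT and 2 in PERK-KO. Fragments of such copies cannot be assigned to one of them. SNORA7B, which differs from SNORA7A by 2 bases, and SNORD58B, SNORA17, SCARNA9 and SCARNA13 also had numbers that were not whole. Their values are uncertain too, for a reason that was not tested.

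The limit drew the border at very different fragment numbers in short and long rows. Just inside it were SCARNA9 (353 bases), with 6.11 FPKM in WT and 5.01 in PERK-KO, and SNORA29 and SCARNA11, both at 0 in WT and at 6.78 and 7.34 FPKM in PERK-KO from 1 fragment each. Just outside it were SCARNA17 (421 bases), with 4.08 FPKM in WT and 2.33 in PERK-KO, SCARNA2 (420 bases), with 0.910 and 2.60 FPKM, and SCARNA9L (348 bases), with 2.03 and 0.772 FPKM. SCARNA17 had 18 fragments in WT and 9 in PERK-KO, and so had more behind its values than most members.

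Of the 181 members, 112 were above 0 in both samples, 38 were listed at 0 in WT and 31 were listed at 0 in PERK-KO. A value of 0 in one sample was thus listed for 69 members, 38.1% of them, whereas it was listed for 1.29% of all 10355 rows that reached 5 FPKM in at least 1 sample. The share was not particular to the members. It was 38.5% in 143 rows named MIR and 33.3% in 6 rows of other short RNA families, all up to 400 bases and under the same limit. Of the 69 members, 26 had 1 fragment in the other sample, 16 had 2 and 10 had 3. The exact 95% Poisson interval of a count of 0 reaches 3.69 fragments, so differences from 0 to 3 fragments or fewer were not detectable at this depth. Some larger differences were not either. The exact 95% interval of the ratio of PERK-KO over WT also included 1 at 0 fragments in WT and 4 in PERK-KO, as in SNORD84 (lower limit 0.754). It did so at 5 in WT and 0 in PERK-KO, as in SNORA26 (upper limit 1.25).

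Of the 112 members with 2 values above 0, 27 had a lower value in PERK-KO by more than about 1.5-fold (a log2 ratio beyond 0.58), 46 were higher by more than this fold and 39 were within it. In all 10221 rows under the same limit, 6.56% were lower and 8.16% higher by more than this fold. The deposited confidence limits did not overlap for 2 of the 27 lower members, SNORD36A and SNORA10, and for 3 of the 46 higher ones, SNORA70, SNORD96A and SNORD19B. In all rows, 5.96% were lower and 7.23% higher with limits that did not overlap. The lower members include SNORA17, whose value in PERK-KO was far under that of 1 fragment.

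The median log2 ratio of PERK-KO over WT was 0.19 over the 112 members, with quartiles of -0.55 and 1.19, against 0.03 over all rows under the limit. A log2 ratio of 0.19 is the value of a member with equal fragment numbers in both samples, since PERK-KO was scaled by the smaller total, and 13 members had exactly this ratio. By class, 9 SNORD members were lower and 24 higher of 58, 16 SNORA members were lower and 20 higher of 49, and 2 SCARNA members were lower and 2 higher of 5. The median was 0.19 for SNORD, 0.19 for SNORA and -0.29 for SCARNA.

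Summed over the members, the number of fragments relative to the total was 1.15 times as high in PERK-KO as in WT, with an exact 95% interval of 1.05 to 1.27. This interval, like the others given for a ratio, is a Clopper-Pearson interval of the PERK-KO share of fragments and covers counting error only. The members were chosen by these same values, and 38 listed at 0 in WT and 31 at 0 in PERK-KO entered through 1 sample alone. With 1 sample per genotype besides, an interval that leaves out 1 is no test of the genotypes. The ratio was 1.24 (1.08 to 1.42) for SNORD members, 1.07 (0.929 to 1.23) for SNORA members and 1.17 (0.798 to 1.73) for SCARNA members. The intervals of the classes overlap. Without SNORA10, the member with the most fragments, the ratio over all members was 1.21 (1.10 to 1.33).

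**Figure D3:**
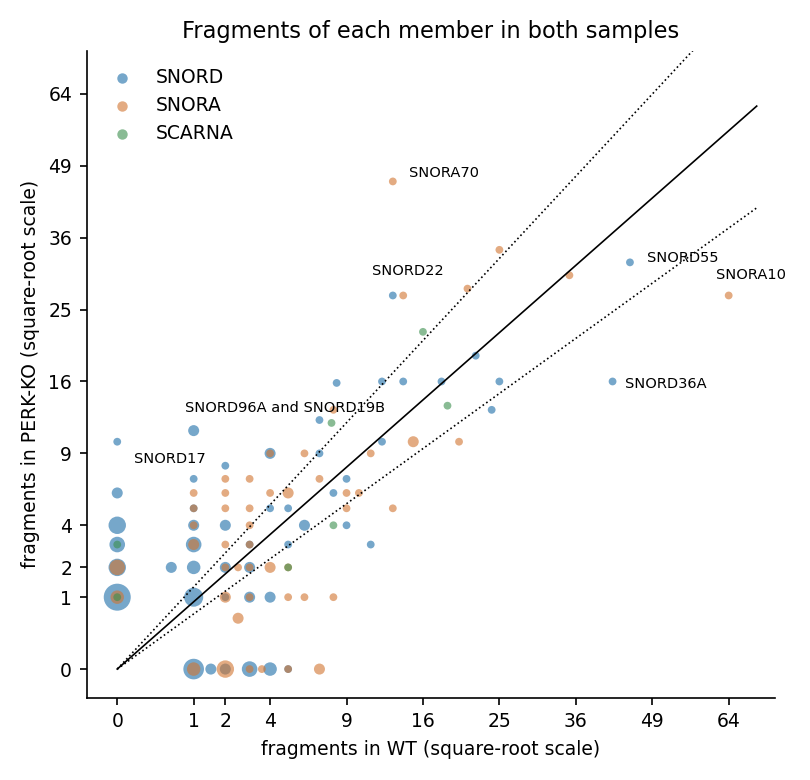
Fragments of each member in WT and PERK-KO on square-root scales, by class. The area of a point gives the number of members at that place, the solid line marks equal fragments relative to the totals and the dotted lines the fold limit of about 1.5. Most members lie below 10 fragments in both samples, SNORD36A and SNORA10 lie below the lines, and SNORA70, SNORD96A and SNORD19B lie above them.

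The highest levels were those of box C/D members. SNORD55 had 3081 FPKM in WT (45 fragments, confidence limits 2155 and 4006) and 2501 FPKM in PERK-KO (32 fragments, limits 1615 and 3387). SNORD36A, in RPL7A, had 3230 FPKM in WT (42 fragments, limits 2225 and 4235) and 1405 FPKM in PERK-KO (16 fragments, limits 702 and 2107). SNORD68, in RPL13, had 1846 FPKM in WT (24 fragments) and 1141 FPKM in PERK-KO (13 fragments). The limits of SNORD36A did not overlap, while those of SNORD55 and SNORD68 did.

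Next in mean FPKM came SNORD58B in RPL17, SNORD49B, SNORD80 and SNORD47 in GAS5, SNORD25 in SNHG1, SNORD81 in GAS5 and SNORD36C in RPL7A. SNORD49B was listed at 0 in WT and had 2820 FPKM in PERK-KO, from 4 fragments in a row of 48 bases. SNORD81 was listed at 0 in WT and had 1608 FPKM in PERK-KO, from 1 fragment in a row of 43 bases. At these lengths 1 fragment was worth 705 and 1608 FPKM in PERK-KO. Of the 10 members with the highest FPKM, 2 were also among the 10 with the most fragments relative to the totals, and 5 among the 10 highest when fragments were divided by the plain row length.

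Of the box H/ACA members, SNORA10 had the highest level, with 458 FPKM in WT (64 fragments, limits 341 and 576) and 221 FPKM in PERK-KO (27 fragments, limits 136 and 306). The ratio of PERK-KO over WT was 0.482, with an interval of 0.295 to 0.766. SNORA10 was also named for its low ratio, and the interval makes no allowance for that choice. SNORA64 lies in the same gene, RPS2, which encodes a protein of the small ribosomal subunit. It had 174 FPKM in WT (25 fragments) and 271 FPKM in PERK-KO (34 fragments), and its confidence limits overlapped. The levels of these neighbours thus lay on opposite sides, while their host had 13204 FPKM in WT and 11687 in PERK-KO. The highest SCARNA member was SCARNA15, with 67.8 FPKM in WT (8 fragments) and 38.7 FPKM in PERK-KO (4 fragments).

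At least 10 fragments in both samples, as read from the confidence limits, stood behind 17 members, and these had log2 ratios from -1.20 to 2.01. SNORD36A (-1.20), SNORA10 (-1.05) and SNORD68 (-0.69) were lower by more than about 1.5-fold. SNORD88B (-0.45), SNORD55 (-0.30), SCARNA9 (-0.29), SNORA67 (-0.03), SNORD23 (-0.02), SNORD47 (0.02) and SNORD80 (0.38) were within it. SNORA61 (0.61), SNORD35B (0.61), SNORA64 (0.64), SCARNA12 (0.65), SNORA18 (1.14), SNORD22 (1.25) and SNORA70 (2.01) were higher. The median of the 17 was 0.02. By the fragment numbers from row length, 4 more members reached 10 in both samples, namely SNORA40 (-0.81), SNORA8 (-0.39), SNORA63 (-0.39) and SNORD83B (-0.07). Over these 21 members the median was -0.03, with 4 lower and 7 higher.

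SNORA70, in RPL10, a gene of the large ribosomal subunit, had 88.2 FPKM in WT (13 fragments, limits 39.3 and 137) and 356 FPKM in PERK-KO (46 fragments, limits 251 and 461). Its ratio was 4.04, with an interval of 2.15 to 8.15. The host RPL10 had 594 FPKM in WT and 629 in PERK-KO, with limits that overlapped. SNORD22, an RNA linked to the processing of the small-subunit ribosomal RNA, had 113 FPKM in WT (13 fragments) and 269 FPKM in PERK-KO (27 fragments). SNORA18 had 103 FPKM in WT (14 fragments) and 227 FPKM in PERK-KO (27 fragments). For SNORD22 and SNORA18 the confidence limits overlapped, and the intervals of the ratio were 1.18 to 5.01 and 1.12 to 4.54. SNORA70, SNORD22 and SNORA18 were named for the highest ratios among members with at least 10 fragments in both samples. Their intervals make no allowance for that choice.

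Among members above 0 in both samples with limits that did not overlap, the largest ratios rested on 1 fragment in WT. SNORD96A, in GNB2L1, the gene of the ribosomal scaffold RACK1, had 76.9 FPKM in WT (1 fragment) and 966 FPKM in PERK-KO (11 fragments). SNORD19B, in GNL3, the gene of the nucleolar protein nucleostemin, had 27.3 FPKM in WT (1 fragment) and 343 FPKM in PERK-KO (11 fragments). Both had a ratio of 12.6 with an interval of 1.83 to 541. SNORD17, in an intron of SNX5, had 0 fragments in WT and 10 in PERK-KO (11.1 FPKM), the most of any member that was listed at 0 in one sample. SNORA44 in SNHG12 and SNORA23 both had 7 fragments in WT and 0 in PERK-KO, the most of any member that was listed at 0 in PERK-KO. SNORD96A, SNORD19B, SNORD17, SNORA44 and SNORA23 were singled out after their values were seen.

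A host gene was found for 176 of the 181 members. For 126 it was the row of the gene annotated around the member on its strand, for 42 the overlapping row with the highest FPKM, because the small RNA was not in the annotation, and for 8 the annotated gene found by its name. The deposited host rows of these 8, TAF1D for 7 members and RNF149 for SNORD89, did not overlap the members. SCARNA15, SNORD60, SNORD104, SNORA76 and SNORD93 had none. There were 94 distinct hosts, and 128 members lay in protein-coding hosts, 44 in long non-coding RNA hosts and 4 in hosts annotated as transcribed pseudogenes. Hosts named RPL or RPS, most of them genes of ribosomal proteins, were 24 and held 49 members. Of the 176 members, 47 lay in an intron of every annotated host transcript, 2 in an exon of the canonical transcript, and 127 overlapped an exon of another annotated transcript of the host. The 4 members in RPL13A were assigned to the row named RPL13AP5 at that position, a near-identical copy of RPL13A by name, so that the level of this host is uncertain.

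Hosts of members were more abundant than hosts of rows under the limit. The 94 hosts had a median of 160 FPKM in WT and 155 FPKM in PERK-KO, with quartiles of 44.8 and 1009 in WT. The 79 hosts of 129 rows under the limit, some of which also hold members, had a median of 24.3 FPKM in WT and 27.8 in PERK-KO. Across the 176 members, the rank correlation between a member's fragments and the FPKM of its host was weak, at 0.09 in WT and 0.13 in PERK-KO. Between the FPKM of the member and that of its host it was 0.31 in WT and 0.32 in PERK-KO. These points share hosts and libraries and were selected by level.

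In 108 pairs with the member above 0 and the host at 1 FPKM or more in both samples, the member had the higher FPKM in 28 pairs in WT and 39 in PERK-KO. When a member's fragments were divided by its plain length instead, it was above its host's FPKM in 1 pair in either sample. The comparison of levels between a member and its host thus depended on the effective length.

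The ratios of the 94 host genes spread less than those of the members. Of the hosts, 10 (10.6%) were lower in PERK-KO by more than about 1.5-fold and 4 (4.26%) were higher, beside 6.56% and 8.16% of all rows, and their median log2 ratio was -0.10. Of the 17 long non-coding hosts, 7 were lower and 0 higher, with a median of -0.31, and of the 75 protein-coding hosts 3 were lower and 4 higher, with a median of -0.04. The 24 RPL and RPS hosts had a median of -0.33, with RPL17, RPLP2 and RPS20 lower and 0 higher. The lower long non-coding hosts were SNHG5, SNHG6, SNHG8, SNHG9, SNHG11, SNHG15 and ZFAS1. The largest of these differences was that of SNHG9, which had 92.0 FPKM in WT and 47.9 FPKM in PERK-KO.

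The log2 ratio of a member minus that of its host had a median of 0.39 over the 108 pairs, from 65 hosts, with quartiles of -0.27 and 1.43. It was positive in 66 pairs and negative in 42. Overlapping rows can share fragments, so the ratios of a member and its host are not independent. When the fragments of all members of a host were summed first, giving 1 value for each of 67 hosts, the median was 0.15, and over the 17 members with at least 10 fragments in both samples by the confidence limits it was also 0.15. A member with equal fragment numbers in both samples and a host with a log2 ratio of 0 would give 0.19. Of 72 members in these pairs beyond about 1.5-fold, 61 had a host within that fold, 6 had a host beyond it in the same direction and 5 had a host beyond it in the opposite direction. Within that fold were 85.1% of the 94 hosts and 85.3% of all rows that reached 5 FPKM. The 61 lie near that share. A host value had much narrower confidence limits. A Poisson error of their size would need a median of 2198 fragments in WT and 1922 in PERK-KO, which need not be the fragments counted.

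**Figure D4:**
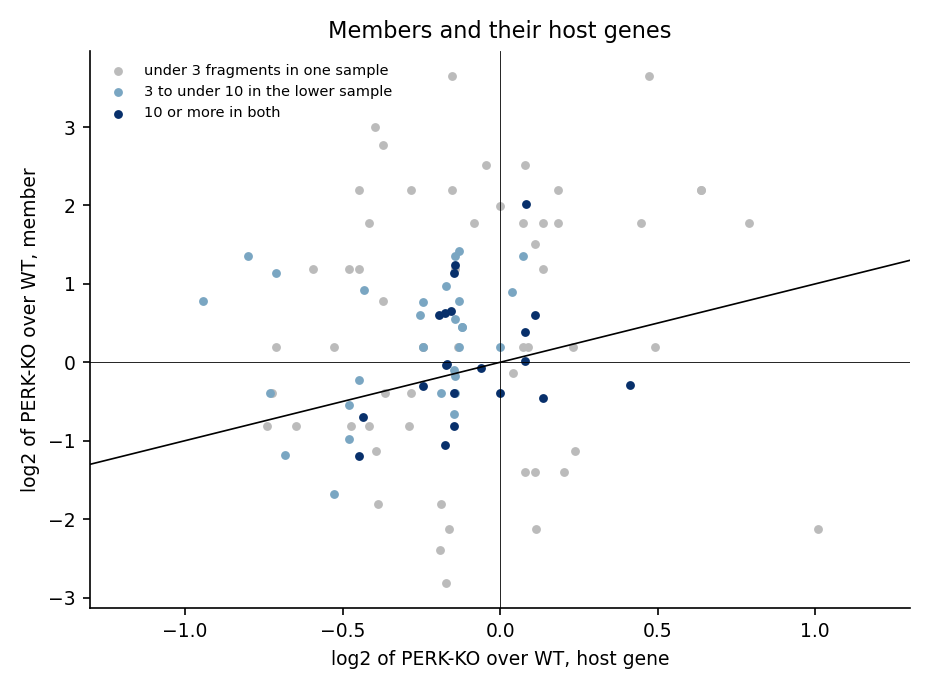
Log2 ratio of PERK-KO over WT of each member against that of its host for 107 of 108 pairs, coloured by the fragments behind the member. SNORA17 lies far below the plot and is not drawn, and the diagonal marks equal ratios. Member ratios run from -2.81 to 3.65 while host ratios run from -0.94 to 1.01, and the widest member ratios belong to members with under 3 fragments in one sample.

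The hosts with larger ratios had few fragments in their members. SNHG5 had 573 FPKM in WT and 343 FPKM in PERK-KO, and its 2 members had 6 fragments together in WT and 1 in PERK-KO. ZFAS1 had 332 and 201 FPKM, and its 2 members had 3 and 4 fragments. RPL17, a ribosomal protein gene, had 1836 FPKM in WT and 1121 in PERK-KO, and its 3 members had 9.24 and 18.8 fragments. Their sum lay on the opposite side from the host, but most of it was SNORD58B, with 8.24 and 15.8 fragments. The numbers of SNORD58B were not whole, and its confidence limits overlapped. RPLP2 had 4771 FPKM in WT and 2974 in PERK-KO. Its member SNORA52 lay on the same side, with 13 and 5 fragments and limits that overlapped.

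GAS5, a non-coding RNA gene with many intronic box C/D RNAs, held 10 members. In WT, SNORD47 had 18 fragments, SNORD80 had 14, SNORD77 had 3, SNORD44 had 1, and SNORD74, SNORD75, SNORD76, SNORD78, SNORD79 and SNORD81 had 0. In PERK-KO, SNORD47 and SNORD80 had 16 each, SNORD76 had 6, SNORD44 had 5, SNORD79 had 4, SNORD78 had 3, and SNORD74, SNORD75, SNORD77 and SNORD81 had 1 each. SNORD47 and SNORD80 thus held most fragments in both samples, and the others differed between samples at 6 fragments or fewer. Summed, the 10 members had 36 fragments in WT (exact 95% Poisson interval 25.2 to 49.8) and 54 in PERK-KO (40.6 to 70.5), a ratio relative to the totals of 1.71 (1.10 to 2.69). SNORD74, SNORD75, SNORD76, SNORD78, SNORD79 and SNORD81 met the FPKM limit through PERK-KO alone. Since their fragments enter only the PERK-KO sum, this interval is no test of a difference. GAS5 itself had 278 FPKM in WT and 293 FPKM in PERK-KO, with limits that overlapped.

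SNHG1, a spliced non-coding host, held 8 members. SNORD22 had 13 fragments in WT and 27 in PERK-KO, SNORD27 had 9 and 7, SNORD25 had 7 and 9, SNORD28 had 6 and 4, SNORD31 had 4 and 9, and SNORD26 had 2 and 4. SNORD29 and SNORD30 had 0 in WT and 6 and 3 in PERK-KO. SNORD27 and SNORD28 were the members with fewer fragments in PERK-KO, and the other 6 had more. Summed, they had 41 fragments in WT (29.4 to 55.6) and 69 in PERK-KO (53.7 to 87.3), a ratio relative to the totals of 1.92 (1.29 to 2.90). This interval is no test either, since SNORD29 and SNORD30 met the FPKM limit through PERK-KO alone. SNHG1 had 128 FPKM in WT and 116 FPKM in PERK-KO, with limits that did not overlap.

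TAF1D, the gene of a subunit of an RNA polymerase I factor, held 6 box H/ACA members and SNORD5 by the annotation. All of them lie outside the deposited row of TAF1D. SNORA40 had 20 fragments in WT and 10 in PERK-KO, SNORA8 had 15 and 10, SNORA18 had 14 and 27, SNORA32 had 11 and 9, SNORA25 had 9 and 5, SNORA1 had 1 and 0, and SNORD5 had 0 and 2. SNORA18 and SNORD5 were higher in PERK-KO and the other 5 were lower. Summed, they had 70 fragments in WT (54.6 to 88.4) and 63 in PERK-KO (48.4 to 80.6), a ratio of 1.03 (0.719 to 1.47). TAF1D had 45.5 and 41.1 FPKM.

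**Figure D5:**
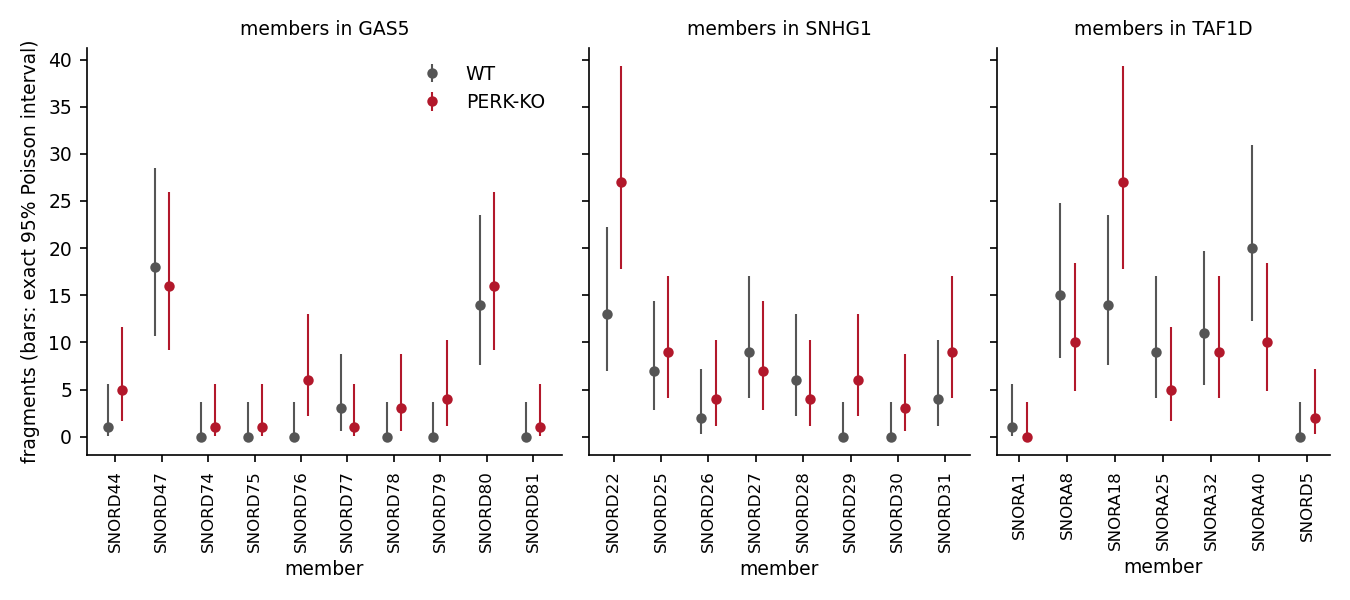
Fragments of each member of GAS5, SNHG1 and TAF1D in WT and PERK-KO, with exact 95% Poisson intervals that cover counting error only. The intervals of WT and PERK-KO overlap for every member drawn. Sums were 36 and 54 in GAS5, 41 and 69 in SNHG1, and 70 and 63 in TAF1D.

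The box C/D members of RPL7A did not share a direction. SNORD36A had 42 fragments in WT and 16 in PERK-KO, SNORD36C had 8 and 6, SNORD36B had 2 and 8, and SNORD24 had 1 and 2. Together they had 53 fragments in WT and 32 in PERK-KO, a ratio of 0.689 (0.430 to 1.09), and RPL7A had 6011 FPKM in WT and 4405 FPKM in PERK-KO. In NOP56, which encodes a core box C/D protein, 4 members had 7 fragments in WT and 16 in PERK-KO, and the level of the host was 160 and 168 FPKM.

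Most of the proteins that bind and assemble these RNAs were within the fold limit, as were 85.3% of all rows that reached 5 FPKM. Of the 4 core box C/D proteins, the methyltransferase FBL had 486 FPKM in WT and 397 in PERK-KO, NOP58 had 93.6 and 71.4, NOP56 had 160 and 168, and NHP2L1 had 86.8 and 89.7. None of these 4 was beyond about 1.5-fold. Of the 4 core H/ACA proteins, NHP2 had 339 FPKM in WT and 225 in PERK-KO, a log2 ratio of -0.59, and was the 1 beyond the fold. The pseudouridine synthase DKC1 had 75.0 and 65.7 FPKM, GAR1 had 55.9 and 56.0, and NOP10 had 195 and 148. Of 19 assembly and processing factors, in 20 rows because SMN1 was listed at 2 positions, 0 were lower and 2 higher: NAF1, an assembly factor of H/ACA particles, with 8.90 FPKM in WT and 19.3 in PERK-KO, and EXOSC10, a nuclease of the nuclear exosome, with 26.6 and 40.6. Of 13 host genes listed by name, non-coding except TAF1D, 4 were lower and 0 higher, with a median log2 ratio of -0.20: SNHG5, SNHG6, SNHG8 and ZFAS1. Most of the 13 are also among the hosts of members above. These 4 were already counted there as lower, so they are not a separate result.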

How the data were processed

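Poly(A)-selected RNA of 1 WT and 1 PERK-KO HEK293 sample was sequenced. The authors mapped reads with TopHat2 2.0.13 to hg19 and deposited FPKM per gene with confidence limits, computed with Cufflinks 2.2.1. No counts were used, and without replicates no test was run. The fold limit, a log2 ratio of 0.58, follows the study's methods. Members and gene lists were chosen with earlier results of these data known.

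Fragments were derived by dividing FPKM by the value of 1 fragment at a row's length. This step was tested on data simulated with the same fragment lengths. Such data cannot show whether the assumed lengths hold for the deposited values. The confidence limits lie 2 SD from the FPKM. For hosts, the squared ratio of FPKM to SD gave the number of fragments that a Poisson error of that size would need. It is not a count, since hosts of like FPKM, such as RPL7A and RPL13AP5, had limits of very different width. No counting by strand is stated in the sources used here. Hosts and strands came from GENCODE 44 lifted to GRCh37, on which 137 of 181 members were annotated. All 23972 rows on main chromosomes ended within that reference. Members named singly were the 10 highest in mean FPKM, the 10 lowest and 10 highest ratios with at least 10 fragments in both samples (17 members in all), the 3 highest listed at 0 in one sample, those of the 3 hosts with most members, the highest of each class and the 3 on either side of the limit. Members named beyond these, and the other hosts whose members were summed, were picked outside these rules with the values known. Scripts ran in Python 3.11.15 with pandas 2.3.3, numpy 2.4.6 and scipy 1.17.1, and plots were drawn with matplotlib 3.10.9. A few sequences and 1 host gene are not reported here.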

Additional observations from a re-analysis of the deposited data

How the results depend on the processing

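No paired analysis was possible because each genotype had 1 sample, and for the same reason no sample could be left out. The numbers of members beyond about 1.5-fold, 27 lower and 46 higher, stayed within 1.5 times under other FPKM limits of 1, 5 in both samples and 10, after rescaling, with rows of a name summed and without alternate haplotypes. They became 58 lower and 84 higher with a pseudocount of 1 FPKM, which lets members at 0 in one sample enter. They became 3 and 7 with at least 10 fragments in both samples by the confidence limits (17 members), 4 and 7 by row length (21 members, added after the data were seen), and 2 and 3 when the confidence limits had to be apart. With a fold of 2 the lower members were 17 and the higher ones 34. After the data were seen, at least 3 fragments in one sample (24 and 42) and whole fragment numbers (24 and 42) were added. The median log2 ratio of members ran from -0.03, over those 21 members, to 0.19, with 0.00 without scaling by depth, and the median difference from the host from 0.15 to 0.53. The sum of fragments kept a ratio between 1.15 and 1.21. Fragment numbers limit most single members, since 89 of 181 had no more than 3 in both samples.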

Other observations

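Other short RNA genes in the tables also rested on few fragments. Of 143 rows named MIR of up to 400 bases that reached 5 FPKM in at least 1 sample, 88 were above 0 in both samples, 24 were lower and 40 higher by more than about 1.5-fold, and the median log2 ratio was 0.19, the value of equal fragment numbers. In these rows 110 had no more than 3 fragments in WT and 107 in PERK-KO. Confidence limits were apart for 8 of the lower and 2 of the higher rows. Summed, the fragments of the 143 rows had a ratio relative to the totals of 0.793 with an exact 95% interval of 0.757 to 0.831, and of 0.726 (0.688 to 0.767) without the row with the most fragments. Their sum in WT was 4364 fragments but their median was 1, and 16 rows had at least 10 in both samples. These ratios thus describe mainly the rows with many fragments, and their intervals are no test. Of 6 rows of other short RNA families up to 400 bases (RNU, RNY, RN7, VTRNA, RMRP, RPPH1 and TERC), 4 were above 0 in both samples, 2 were lower and 0 higher, and together they had 32 fragments in WT and 21 in PERK-KO, a ratio relative to the totals of 0.749 with an exact 95% interval of 0.411 to 1.34.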
